A study of Homo sapiens with 18 samples.

Results

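The genes described here are protein-coding genes that gave no read in HCC1937-EV cells and were expressed in HCC1937-OE-BRCA1 cells. They were chosen from the read counts. A gene was taken when it had 0 counts in each of the 9 HCC1937-EV libraries and a mean of at least 10 CPM (counts per 1000000 counts of the library) over the 9 HCC1937-OE-BRCA1 libraries. CMPK2, RSAD2, RTP4, genes whose symbols begin with KLK, KRT, HOX, COL, LAM, ITG, HLA or ZNF, and genes of the epidermal differentiation region of chromosome 1 were left out. This gave 154 of the 35044 genes in the table, of which 16941 are protein-coding in GENCODE 29. Before the exclusions by name and position there were 187 such genes. The opposite pattern, 0 counts in HCC1937-OE-BRCA1 and at least 10 CPM in HCC1937-EV with the same exclusions, was met by 42 genes.

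HCC1937 is a breast cancer cell line with a mutated BRCA1 gene, BRCA1 being a protein of homologous recombination repair. HCC1937-EV carries an empty vector and HCC1937-OE-BRCA1 an introduced wild-type BRCA1, and both were sampled before exposure to the PARP inhibitor (PARPi) olaparib at 10 µmol/L and 12 h and 24 h into it. RNA-seq was made from 3 libraries in each of the 6 conditions, 18 in all. GEO's labels give the genotype of HCC1937-EV as WT and that of HCC1937-OE-BRCA1 as BRCA1 overexpression, name olaparib for every library including those at 0 h, and do not say whether either line is 1 clone or whether replicates came from separate cultures. The p-values below therefore measure the spread between these libraries, which may be technical. Libraries held between 15081973 and 17571922 counts, with a median of 16077299.5.

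Epithelial cells are held together by cadherin and claudin junctions and express the splicing regulator ESRP1, the adhesion protein EPCAM and keratins, while mesenchymal cells express vimentin. Interferon genes form a group of their own, because they are silent until double-stranded RNA or other signals of infection are sensed, and the secreted interferon then switches on antiviral genes in the same and in neighbouring cells.

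The cell identity in the labels was checked against markers first, because it bears on every comparison between the lines. EPCAM, an adhesion protein of epithelia, had 1 count over the 9 EV libraries and 44188 over the 9 OE libraries. KRT5, a basal keratin, had 8 and 208586. CDH1, the epithelial cadherin, lay between 0.319 and 1.20 CPM in EV and between 341 and 489 CPM in OE. VIM, which encodes vimentin, lay between 227 and 329 CPM in EV and between 0.644 and 1.97 CPM in OE. BRCA1 itself lay between 87.6 and 124 CPM in EV and between 112 and 175 CPM in OE, so its ranges overlapped. Of 18 epithelial markers, 17 were at 10 CPM or more in OE and 5 in EV, and ESRP1 was at 0 in EV. The summed epithelial markers lay between 3093 and 3877 CPM in EV, most of it from KRT8 and KRT18, and between 10935 and 15830 CPM in OE. The libraries labelled HCC1937-EV were thus at or near 0 for defining epithelial markers that the OE libraries expressed, and the introduced BRCA1 and any other difference between the cells cannot be told apart. In what follows, EV and OE mean the libraries carrying those labels.

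None of the 154 genes is on the marker lists of fibroblasts, endothelial cells, haematopoietic cells or neural cells and melanocytes. The 12 fibroblast markers summed to between 368 and 427 CPM in EV, where VIM and COL1A1 made up most of the sum, and to between 38.6 and 98.4 CPM in OE. FN1, on the same list, went the other way, with a mean of 1.12 CPM in EV and 59.6 CPM in OE. It made up most of the OE sum. Endothelial markers, of which 8 were in the table, summed to between 84.5 and 101 CPM in EV and between 98.6 and 142 CPM in OE. The 10 haematopoietic markers in the table summed to between 9.12 and 15.8 CPM in EV and between 167 and 220 CPM in OE, and the 12 neural and melanocyte markers to between 26.6 and 43.6 CPM and between 82.0 and 129 CPM. In bulk RNA, fewer cells of a type and less RNA per cell cannot be told apart.

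Genes with 0 EV counts stood at one end of a spread of levels. Of the 9466 protein-coding genes with a mean of at least 10 CPM in OE, 187 (1.98%) had 0 counts over the 9 EV libraries, 96 (1.01%) had 1 to 3, 148 (1.56%) had 4 to 30 and 9035 (95.4%) had more than 30. In the plot of EV counts, whose bins differ in width, the neighbouring bins of 4 to 10 and 11 to 30 counts held 73 and 75 genes. All 154 genes were detected in all 9 OE libraries, and the lowest count of any of them in a single OE library was 26. Together they took between 0.716% and 0.801% of the counts of an OE library. Against an EV floor of 3 counts over 9 libraries, which is 0.0204 CPM and covers counting error only, the genes were each at least 489-fold higher in OE. These levels chose the genes and were not tested.

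**Figure D1:**
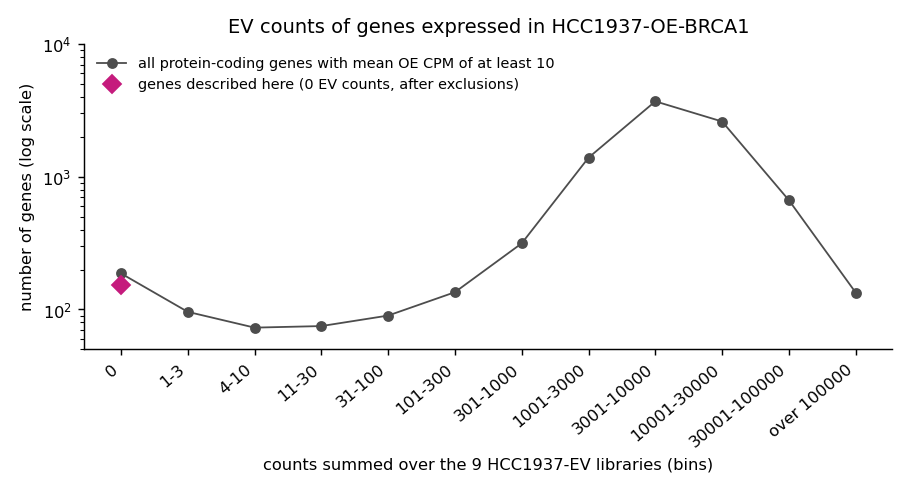
Number of protein-coding genes with a mean of at least 10 CPM in the OE libraries (vertical axis, log scale) by their counts summed over the 9 EV libraries (horizontal axis, bins). The grey line holds all such genes, with 187 at 0 counts, 96 at 1 to 3, 73 at 4 to 10 and 75 at 11 to 30 (the bins differ in width), and the diamond marks the 154 genes described here, all at 0.

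The thresholds cut through neighbours of like level. Among the lowest genes inside were IFNL1 at 10.02 CPM and ARMCX4 at 10.35 CPM. PTPRZ1 at 9.99 CPM, MAP10 at 9.97 CPM and FABP5 at 9.79 CPM also had 0 EV counts and were just outside. Among genes left out for 1 to 3 EV counts, the highest in OE were the interferon-stimulated genes PARP14 (3 EV counts, 562 CPM in OE), IFI44L (3 counts, 330 CPM) and UBE2L6 (3 counts, 313 CPM). EPCAM followed with 1 EV count and 307 CPM, and PKP1, a plakophilin of desmosomes, with 2 EV counts and 270 CPM. The median level of the 154 genes was 24.1 CPM. In all, 62 lay under 20 CPM, 57 between 20 and 50 CPM and 35 above 50 CPM, of which 11 were above 100 CPM.

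Compared per kb of exon, high levels included those of differentiation proteins of stratified epithelium. CALML5 (ENSG00000178372.8, chr10:5498697-5499555), a calmodulin-like protein of differentiating keratinocytes, stood at 179 CPM per kb and CASP14, the caspase of epidermal cornification, at 164 CPM per kb. VGLL1, a cofactor of TEAD transcription factors, stood at 69.3 CPM per kb. CST6, a secreted cysteine protease inhibitor, stood at 60.5 CPM per kb and ESRP1, which sets epithelial splice forms, at 56.5 CPM per kb. The other members of this group were FNDC10 at 50.5, the carboxypeptidase-like CPVL at 46.6, the translation elongation factor EEF1A2 at 44.5, the tight junction claudin CLDN1 at 43.3, the carbonic anhydrase CA2 at 35.1 and the desmosomal cadherin DSC3 at 29.1 CPM per kb. In single libraries ESRP1 lay between 251 and 297 CPM (CPM with TMM-normalized library sizes, as in all that follows). CALML5 varied most among the leading genes at 0 h, from 89.9 CPM in replicate 1 to 189 CPM in replicate 2. Within conditions the coefficient of variation between replicates had a median of 9.89% over the 154 genes, with a range of 2.79% to 25.4%, beside 9.33% over 9312 other protein-coding genes with at least 10 CPM in OE.

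**Figure D2:**
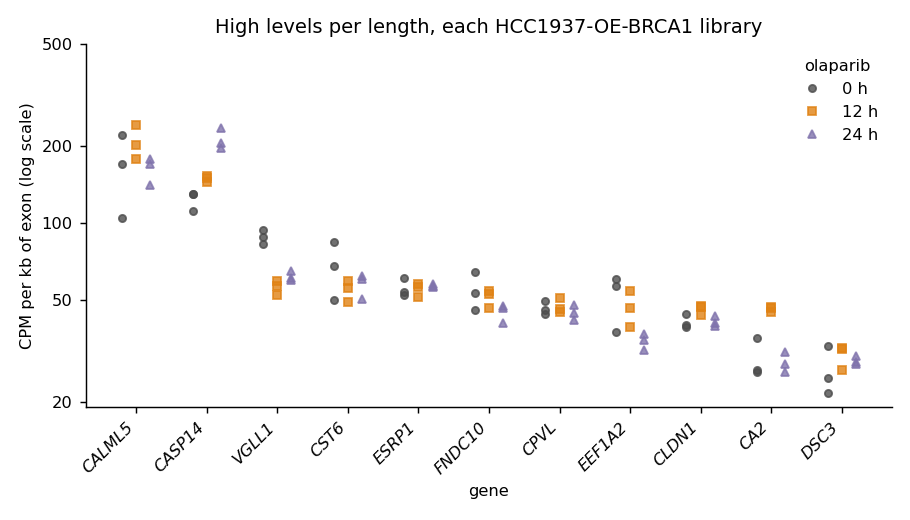
11 of the 12 genes with the highest mean level per length, as CPM per kb of exon (vertical axis, log scale), with 1 point for each of the 9 OE libraries and the time with olaparib shown by shape and shade. CALML5 and CASP14 stand above the other genes plotted, and VGLL1 is lower in all 6 treated libraries than in the 3 untreated ones.

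By role, 18 of the 154 genes encode adhesion and junction proteins, among them CLDN1, the desmosomal cadherins DSC3 and DSG3 (205 and 74.9 CPM), the planar polarity protein VANGL2 (56.8 CPM), the cadherin CDH19 (27.4 CPM) and CEACAM6 (15.8 CPM). Of 67 cadherin and tight junction genes listed, 59 were in the table, 5 were members and 11 were at 10 CPM or more in OE and under 1 CPM in EV. The 19 transcription factors and cofactors were led by VGLL1 (107 CPM), the homeobox factor BARX2 (82.8 CPM) and SIM1 (60.8 CPM). They include IRX2 (45.1 CPM), IRX4 (37.9 CPM), POU4F1 (28.8 CPM), EN2 (17.8 CPM), OVOL2 (12.8 CPM), which represses mesenchymal genes in epithelia, and ETV1 (12.3 CPM). Of 148 lineage transcription factors listed, 122 were in the table and 7 were members. Secreted ligands and binding proteins numbered 8, with the growth factors PDGFC (68.1 CPM), VEGFC (28.5 CPM) and EREG (12.8 CPM), the axon guidance ligand SEMA3A (13.6 CPM) and the neutrophil chemokine CXCL1 (12.7 CPM). Of 121 growth factor and cytokine ligands listed, 110 were in the table and 5 were members. The 8 receptors were led by GABRP (64.4 CPM), a subunit of the GABA-A chloride channel, and include the endothelin receptor EDNRB (15.0 CPM) and the lysophosphatidic acid receptor LPAR1 (26.9 CPM).

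Enzymes of metabolism and glycan synthesis numbered 20, from the heparan sulphate sulphotransferase HS6ST2 (92.0 CPM) down to the epoxide hydrolase EPHX2 (10.4 CPM). Of 64 detoxification and retinoid enzymes listed, 57 were in the table and 1, the retinol-oxidizing alcohol dehydrogenase ADH7 (12.8 CPM), was a member. The 17 kinases, phosphatases and signalling proteins include the tyrosine kinase SYK (22.5 CPM), the phosphoinositide phosphatase INPP4B (54.1 CPM), and both subunits of soluble guanylate cyclase, GUCY1A1 (65.8 CPM) and GUCY1B1 (19.4 CPM). Proteases and their inhibitors numbered 9, with CPVL (156 CPM), the calpain CAPN8 (85.8 CPM) and TMPRSS2 (22.9 CPM). MGMT (55.0 CPM), which removes alkyl groups from guanine in DNA, and the exonuclease EXO5 (15.0 CPM) were the repair enzymes. Channels and transporters numbered 9, led by the glutamate transporter SLC1A6 (113 CPM). No cancer-testis antigen of the 43 in the table was a member; none reached 10 CPM in OE, 11 did in EV, and their summed level lay between 1080 and 1644 CPM in EV and between 7.64 and 10.3 CPM in OE. Of 86 interferon-stimulated genes listed, all in the table, 71 were at 10 CPM or more in OE and 29 in EV, and 3 were members, IFNL1, GBP4 and XAF1.

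The 154 genes were spread over the autosomes and the X chromosome, at unequal shares. Chromosome 4 held 16 of them, 4.65% of its 344 protein-coding genes with at least 10 CPM in OE, beside 1.63% over all chromosomes. The X chromosome followed at 3.09% (8 of 259) and chromosome 17 was lowest at 0.533% (3 of 563). The genes on chromosome 4 ran in gene order from ADRA2C through CXCL1, EREG, SCD5, CDS1, PTPN13, ADH7, INPP4B, TMEM154, GUCY1A1, GUCY1B1, PDGFC, TMEM144, CPE and VEGFC to CYP4V2. These shares are a description over few genes a chromosome.

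**Figure D3:**
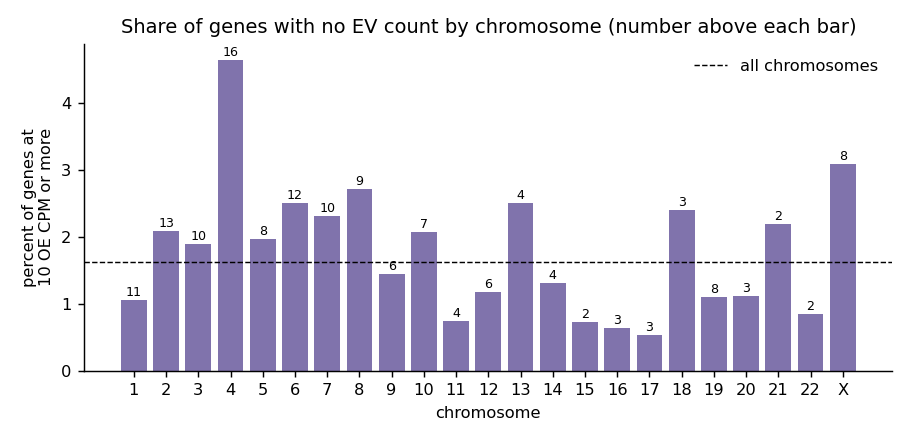
Share of protein-coding genes with a mean of at least 10 CPM in OE that are among the 154 genes (vertical axis, percent), by chromosome, with the number of genes above each bar and the share over all chromosomes as a dashed line. Chromosome 4 is highest at 4.65% and chromosome 17 lowest at 0.533%.

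Most of the genes had an adjacent gene that EV cells did express. An adjacent protein-coding gene was at 1 CPM or more in EV for 95 of the 154, and both adjacent genes were for 22. A gene at that EV level lay within 500000 bases of 121, and none did for the other 33. The same shares over all protein-coding genes were not computed, so no excess among the 154 can be read from these numbers. Consecutive protein-coding genes that are all members formed 6 runs with 13 genes in all, the longest of 3. IRX4, IRX2 and IRX2-DT on chromosome 5, homeobox genes of the Iroquois family and a transcript that starts beside IRX2 on the opposite strand, lay next to NDUFS6, a subunit of respiratory complex I, at 188 CPM in EV and 142 CPM in OE. EDNRB (15.0 CPM) and POU4F1 (28.8 CPM) on chromosome 13 lay next to OBI1, at 18.6 CPM in EV and 17.8 CPM in OE. BVES (12.9 CPM) and POPDC3 (10.4 CPM) on chromosome 6, both of the Popeye domain family, lay next to PREP, at 80.4 CPM in EV and 59.5 CPM in OE. In these runs genes without EV reads were neighbours of a gene expressed in both lines. The neighbour at the other end was SLAIN1 (0 EV counts, 0.0691 CPM in OE) beside EDNRB, while IRX1 and LIN28B were not among the genes counted. The remaining runs were STK39 (35.0 CPM) with the ceramide synthase CERS6 (35.6 CPM) on chromosome 2, GUCY1A1 with GUCY1B1 on chromosome 4, and ENPP4 (28.8 CPM) with ENPP5 (17.6 CPM) on chromosome 6. Their outer neighbours were B3GALT1 (0 EV counts), NOSTRIN (15 EV counts), MAP9 (0), CLIC5 (0) and RCAN2 (0), none above 4.19 CPM in OE.

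Promoters were compared in sequence. RefSeq (GRCh38.p14) gave a promoter for 120 of the 154 genes. In the 250 bases before the start, 79 of 120 (65.8%) were rich in CpG (observed over expected CpG of at least 0.6 and GC of at least 50%), beside 81.4% of 7817 protein-coding genes with at least 10 CPM in OE and 61.4% of all 15317 with a promoter entry. The median observed over expected CpG was 0.728 in the 120, 0.843 in the expressed genes and 0.743 in all. The share of CpG-rich promoters among the genes thus lay between those of expressed genes and of all genes.

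Time with olaparib was not used in choosing the genes except through the mean over the 9 OE libraries, so the response to PARPi could be tested in the OE libraries. No response of these genes could be measured in EV, where they had no counts. After 12 h, 12 of the 154 genes (7.79%) were higher and 3 (1.95%) lower than at 0 h, by edgeR's quasi-likelihood test with a Benjamini-Hochberg adjusted p under 0.05 over all 18335 genes tested. Of all genes tested, 1.7% were called higher and 0.605% lower, and of the 9312 other protein-coding genes with at least 10 CPM in OE, chosen by the same mean, 2.28% and 0.988%. The median log2 fold change was 0.08 over the 154 genes and 0.00 over all genes tested. The higher genes were IFNL1, SMTNL1, GBP4, SLC2A12, XAF1, GABRP, CXCL1, DSG3, CEACAM6, ATP10A, CA2 and PTX3, and the lower ones VGLL1, NKX1-2 and BARX2. Because the mean of 9 libraries includes the treated ones, 13 genes were members with an untreated mean under 10 CPM, and 4 of the 12 higher genes (CXCL1, IFNL1, SLC2A12 and SMTNL1) were among these. Of the other genes, those with an untreated mean of at least 10 CPM, 8 (5.67%) were called higher and 3 (2.13%) lower.

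After 24 h, 21 genes (13.6%) were higher and 10 (6.49%) lower than at 0 h, beside 4.71% and 3.55% of all genes tested and 5.82% and 5.68% of the other expressed protein-coding genes. The share called lower was thus near the background. Of the 21 higher genes, 6 (CXCL1, DCP1B, IFNL1, MED12L, SLC2A12 and SMTNL1) had an untreated mean under 10 CPM and were members only through the treated libraries. Of the genes with an untreated mean of at least 10 CPM, 15 (10.6%) were called higher and 10 (7.09%) lower. The median log2 fold change was 0.10 over the 154 genes and 0.02 over all tested. These counts rested on single libraries. Without replicate 1 of untreated OE, 35 genes (22.7%) passed as higher at 24 h and 17 (11.0%) as lower, while the other expressed protein-coding genes rose to 11.9% and 16.1%, so that the share called lower was then smaller among the 154. At 12 h the counts without it stayed at 12 and 3, beside 2.18% and 1.03% of the other expressed protein-coding genes. Without untreated replicate 2 the counts at 24 h were 8 and 4, without untreated replicate 3 they were 14 and 6, and without 24 h replicates 1, 2 and 3 they were 11 and 3, 13 and 4, and 8 and 2. For these last fits the share of the other genes called was not computed. The 12 h and 24 h comparisons share the untreated libraries.

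**Figure D4:**
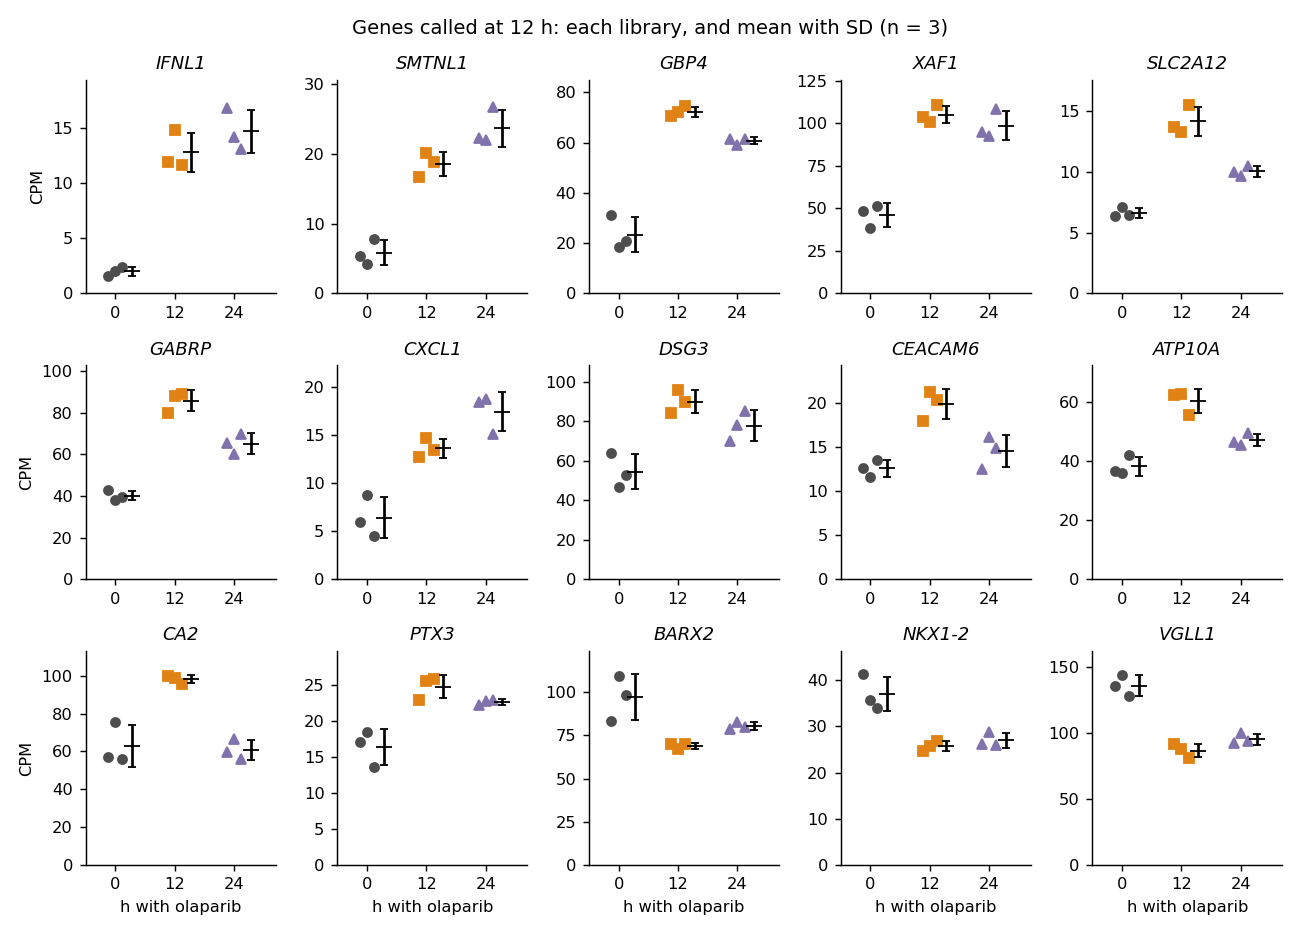
Levels of the 15 genes called at 12 h by edgeR (adjusted p under 0.05), as CPM on a linear axis from 0 (vertical) against hours with olaparib (horizontal). Each coloured point is 1 OE library and the black bar is the mean with its SD (n = 3). The genes were picked by the difference between 0 h and 12 h, 12 of them higher and 3 (VGLL1, NKX1-2 and BARX2) lower, and the plot adds their spread and their levels at 24 h, where IFNL1 lies between 13.1 and 16.9 CPM and CA2 between 55.9 and 66.8 CPM.

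The 3 interferon and antiviral genes rose at 12 h and at 24 h. IFNL1 (ENSG00000182393.3, chr19:39296325-39298673) encodes interferon lambda 1, a secreted type III interferon that acts on epithelial cells. It lay at 1.60, 2.03 and 2.39 CPM at 0 h, at 11.9, 14.9 and 11.7 CPM at 12 h and at 16.9, 14.2 and 13.1 CPM at 24 h. The treated libraries lay far above the untreated ones, and the ranges at 12 h and 24 h overlapped. The rise was 6.38-fold at 12 h (log2 fold change 2.67, SE 0.21, adjusted p = 2.58e-06) and 7.32-fold at 24 h (2.87, SE 0.21, adjusted p = 8.17e-07, from the quasi-likelihood fit of edgeR, adjusted by Benjamini and Hochberg, like every adjusted p here). With an untreated mean of 2.01 ± 0.397 CPM (SD, n = 3), IFNL1 reached the list through its treated libraries.

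GBP4 (ENSG00000162654.9, chr1:89181148-89198932), an interferon-induced guanylate-binding GTPase, lay at 31.2, 18.3 and 20.7 CPM at 0 h, at 70.4, 72.2 and 74.4 CPM at 12 h and at 61.5, 59.2 and 61.5 CPM at 24 h. It rose 3.09-fold at 12 h (adjusted p = 3.19e-05) and 2.60-fold at 24 h (adjusted p = 9.64e-05), and its treated libraries did not overlap with the untreated ones. XAF1 (ENSG00000132530.17, chr17:6755447-6775647), an interferon-induced antagonist of the apoptosis inhibitor XIAP, lay at 48.6, 38.3 and 51.5 CPM at 0 h, at 104, 101 and 111 CPM at 12 h and at 95.1, 92.7 and 108 CPM at 24 h. It rose 2.28-fold (adjusted p = 5.48e-05) and 2.14-fold (adjusted p = 7.18e-05). All 3 genes were called in each of the 6 fits that leave out 1 library, at both times. They moved with their list, of whose 84 tested genes 65 were called higher at 12 h and 67 at 24 h and none lower, with median log2 fold changes of 0.86 and 1.02. That list was written with results of these data known.

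The 250 bases before the RefSeq start were searched on both strands for the core of the interferon-stimulated response element, written as GAAA, any 2 bases and GAAA, or TTTC, any 2 bases and TTTC on the reverse strand, with overlapping matches counted. It was found in 2 of the 120 promoters (1.67%), those of IFNL1 and SLC2A12, beside 2.43% of expressed genes and 2.73% of all genes with an entry. A match is a description of letters, not a shown site. The upstream sequences of the interferon genes and of SLC2A12 are given 5′ to 3′ on the gene's strand (GRCh38.p14, from RefSeq), since these genes rose at 12 h, with matches in capitals. In IFNL1 a pair of matches on the reverse strand, TTTCAGTTTC and TTTCTCTTTC, overlap by 4 bases and begin 214 and 208 bases before the RefSeq start. The sequence of IFNL1 ends at the last base before the GENCODE 29 start, 82 bases before the RefSeq start. In SLC2A12 the match begins 17 bases before the RefSeq start. The last 12 bases printed for SLC2A12 lie inside the gene as GENCODE 29 gives it, so the match reaches across that start. They were kept so that the match was not split. GBP4 and XAF1 hold no match in these windows.
IFNL1, chr19:39296157-39296324 (+ strand): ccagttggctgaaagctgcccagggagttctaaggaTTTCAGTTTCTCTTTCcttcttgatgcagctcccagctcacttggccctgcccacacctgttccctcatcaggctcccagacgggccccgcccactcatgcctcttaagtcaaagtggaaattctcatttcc
SLC2A12, chr6:134052625-134052874 (- strand): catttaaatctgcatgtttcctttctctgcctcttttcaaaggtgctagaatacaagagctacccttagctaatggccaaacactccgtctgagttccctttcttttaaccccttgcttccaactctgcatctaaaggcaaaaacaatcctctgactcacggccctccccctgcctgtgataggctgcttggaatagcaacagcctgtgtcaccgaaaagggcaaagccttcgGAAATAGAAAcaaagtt
GBP4, chr1:89198943-89199192 (- strand): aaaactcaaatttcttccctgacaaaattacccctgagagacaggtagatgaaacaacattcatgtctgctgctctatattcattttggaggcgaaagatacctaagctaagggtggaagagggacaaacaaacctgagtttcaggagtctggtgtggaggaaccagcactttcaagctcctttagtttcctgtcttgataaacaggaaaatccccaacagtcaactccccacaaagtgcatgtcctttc
XAF1, chr17:6755197-6755446 (+ strand): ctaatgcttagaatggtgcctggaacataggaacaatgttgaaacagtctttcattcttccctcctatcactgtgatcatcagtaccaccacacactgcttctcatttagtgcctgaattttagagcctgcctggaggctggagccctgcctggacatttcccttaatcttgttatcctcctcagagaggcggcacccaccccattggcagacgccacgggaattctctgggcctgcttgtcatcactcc

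Genes that are not on the interferon list also rose. Of these, SMTNL1 and CXCL1 had untreated means under 10 CPM and were members only through their treated libraries. The choice of genes thus favoured a rise in them. SMTNL1 (ENSG00000214872.8, chr11:57542641-57550274), a smoothelin-like protein of contractile cells, lay at 5.42, 4.25 and 7.81 CPM at 0 h, at 16.7, 20.1 and 18.9 CPM at 12 h and at 22.3, 22.0 and 26.7 CPM at 24 h. It rose 3.18-fold (log2 fold change 1.67, SE 0.20, adjusted p = 0.000178) and 4.07-fold (2.02, SE 0.20, adjusted p = 1.86e-05), without overlap, and was called in every fit that leaves out 1 library. SMTNL1 ends 1381 bases from the end of UBE2L6 on the opposite strand, the interferon-stimulated gene at 313 CPM in OE, which rose by a log2 fold change of 0.77 at both times (adjusted p = 0.00198 and 0.00118). The strand setting of the counting is not given in the sources used here, and the part of UBE2L6 reads in the SMTNL1 counts was not tested. CXCL1 (ENSG00000163739.5, chr4:73869393-73871242) lay at 5.91, 8.75 and 4.53 CPM at 0 h, at 12.8, 14.7 and 13.5 CPM at 12 h and at 18.4, 18.8 and 15.1 CPM at 24 h. Its rise was 2.13-fold (adjusted p = 0.00986) and 2.72-fold (adjusted p = 0.000605). The call at 12 h was lost without replicate 2 of 12 h, and CXCL1 has close paralogs with which its reads could be shared.

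GABRP (ENSG00000094755.17, chr5:170763350-170814047) and SLC2A12 were higher at 12 h than at 24 h in every library. GABRP lay at 42.7, 38.1 and 39.7 CPM at 0 h, at 80.1, 88.2 and 89.2 CPM at 12 h and at 65.6, 60.1 and 70.0 CPM at 24 h. It rose 2.13-fold (adjusted p = 3.85e-05) and 1.62-fold (adjusted p = 0.00132), and the difference between 24 h and 12 h was not called (adjusted p = 0.092). SLC2A12 (ENSG00000146411.6), a glucose transporter, lay at 6.34, 7.08 and 6.42 CPM at 0 h, at 13.7, 13.2 and 15.5 CPM at 12 h and at 9.95, 9.64 and 10.5 CPM at 24 h. Its rise was 2.14-fold (adjusted p = 0.000915) and 1.51-fold (adjusted p = 0.0325), and the call at 24 h held in 1 of the 6 fits that leave out 1 library. The difference between 24 h and 12 h was again not called (adjusted p = 0.128). With an untreated mean under 10 CPM, SLC2A12 too was a member only through its treated libraries.

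Among junction proteins DSG3 (ENSG00000134757.5), the desmoglein of basal keratinocytes, lay at 64.0, 46.6 and 52.8 CPM at 0 h, at 84.1, 95.9 and 89.8 CPM at 12 h and at 70.0, 78.0 and 85.3 CPM at 24 h. It rose 1.65-fold (adjusted p = 0.00576) and 1.43-fold (adjusted p = 0.0261), the call at 24 h holding in 2 of the 6 fits that leave out 1 library. CEACAM6 rose 1.58-fold at 12 h (adjusted p = 0.0325) and stood at 1.16-fold at 24 h (adjusted p = 0.455). CLDN1, at 151 ± 9.40 CPM at 0 h, 169 ± 7.70 CPM at 12 h and 151 ± 6.61 CPM at 24 h (SD, n = 3), was not called at either time, and nor were DSC3 and CDH19. PCDHGB5, a clustered protocadherin whose exons are partly shared with its neighbours, rose 1.69-fold at 24 h (adjusted p = 0.0126), and the call was lost without untreated replicate 2 or 24 h replicate 3. In all, 2 of the 18 adhesion genes were higher at 12 h and 4 at 24 h, and none was lower, beside 12 and 21 higher of the 154 genes and 1.7% and 4.71% higher of all genes tested. Of the wider cadherin and tight junction list, 39 genes were tested, with 3 higher and 1 lower at 12 h and 3 higher and 4 lower at 24 h, and median log2 fold changes of 0.11 and 0.06. The epithelial marker list gave 1 higher and 0 lower of 18 at 12 h and 0 higher and 5 lower at 24 h. Of all genes tested, 0.605% were called lower at 12 h and 3.55% at 24 h. The summed level of the epithelial list moved from between 13005 and 15830 CPM at 0 h to between 10935 and 11987 CPM at 24 h. Its part in the changes of the 154 genes was not tested.

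PTX3, CA2 and ATP10A, like CEACAM6, were called higher at 12 h and not at 24 h, and the difference between the times was called for CA2. PTX3, a secreted pattern recognition protein, rose 1.51-fold at 12 h (adjusted p = 0.0416) and stood at 1.38-fold at 24 h (adjusted p = 0.0594). ATP10A, a phospholipid flippase, lay at 36.8, 36.1 and 42.1 CPM at 0 h and at 62.7, 62.9 and 55.9 CPM at 12 h, a rise of 1.58-fold (adjusted p = 0.0048), and at 46.5, 45.7 and 49.7 CPM at 24 h (1.23-fold, adjusted p = 0.123). CA2 lay at 57.0, 75.5 and 55.9 CPM at 0 h, at 99.98, 98.9 and 95.9 CPM at 12 h and at 59.7, 66.8 and 55.9 CPM at 24 h. It rose 1.57-fold at 12 h (adjusted p = 0.0121) and overlapped with the untreated libraries at 24 h, where the difference from 12 h was called (log2 fold change -0.69, adjusted p = 0.0154). Of the 6 fits that leave out 1 library, the call at 12 h held in 6 for ATP10A, 3 for CA2 and 1 each for PTX3 and CEACAM6, and the difference between the times in CA2 held in 1.

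At 12 h, 3 genes were called lower, VGLL1, NKX1-2 and BARX2. VGLL1 (ENSG00000102243.13, chrX:136532152-136556807) lay at 136, 144 and 128 CPM at 0 h, at 91.4, 87.7 and 81.1 CPM at 12 h and at 92.5, 100.2 and 93.7 CPM at 24 h. All 6 treated libraries lay below the untreated ones, with log2 fold changes of -0.65 (SE 0.10, adjusted p = 0.00172) and -0.51 (SE 0.10, adjusted p = 0.00584), and the call at 12 h held in each fit that leaves out 1 library. NKX1-2, a homeobox factor, lay at 41.3, 35.8 and 34.0 CPM at 0 h, at 24.7, 25.8 and 26.9 CPM at 12 h and at 26.2, 28.9 and 26.0 CPM at 24 h. Its log2 fold changes were -0.52 (adjusted p = 0.0436) and -0.45 (adjusted p = 0.0388). BARX2 changed by -0.49 at 12 h (adjusted p = 0.0328) and by -0.27 at 24 h (adjusted p = 0.157). The calls of NKX1-2 and BARX2 at 12 h held in 1 of the 6 fits that leave out 1 library. Of the 19 transcription factors and cofactors, none was higher and 3 were lower at 12 h, beside 1.7% and 0.605% of all genes tested, and 2 were higher and 4 lower at 24 h, beside 4.71% and 3.55%. The role groups were formed after the genes were seen, and these few calls were not tested as a group. The lineage factor list gave 2 higher and 2 lower of 104 tested at 12 h and 7 and 3 at 24 h.

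CASP14 and DCP1B were called higher at 24 h and not at 12 h, DCP1B being a member only through its treated libraries. CASP14 (ENSG00000105141.6, chr19:15049384-15058293) lay at 454, 391 and 454 CPM at 0 h, at 507, 526 and 535 CPM at 12 h and at 716, 687 and 820 CPM at 24 h. It rose 1.71-fold at 24 h (log2 fold change 0.77, SE 0.10, adjusted p = 0.000187) and stood at 1.21-fold at 12 h (adjusted p = 0.246). DCP1B (ENSG00000151065.14, chr12:1946054-2004535), a cofactor of mRNA decapping, lay at 10.2, 9.06 and 8.19 CPM at 0 h, at 10.1, 12.2 and 12.1 CPM at 12 h and at 19.2, 19.8 and 20.1 CPM at 24 h. Its rise at 24 h was 2.16-fold (adjusted p = 0.000378), and both genes were called at 24 h in each of the 6 fits that leave out 1 library. In CASP14 the libraries were ordered by time without overlap, while DCP1B overlapped between 0 h and 12 h. MED12L, VANGL2, XDH, ETV1, DIAPH2, SLITRK6, ENPP5, CAPN8, CYP4V2 and LPAR1 were also called higher at 24 h, with log2 fold changes between 0.44 and 0.74, and their calls held in 1 to 4 of the 6 fits. MED12L, like DCP1B, was a member only through its treated libraries.

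The genes called lower at 24 h fell by less than 1 on the log2 scale. The largest fall was that of ADRA2C, an adrenergic receptor, at 8.87, 16.8 and 16.0 CPM at 0 h and 6.14, 8.35 and 7.42 CPM at 24 h (log2 fold change -0.93, SE 0.24, adjusted p = 0.0291). IRX2-DT lay at 31.6, 55.8 and 41.6 CPM at 0 h and at 24.3, 24.9 and 22.2 CPM at 24 h (-0.85, adjusted p = 0.00775), and like that of VGLL1 this call held in all 6 fits that leave out 1 library. It starts beside IRX2 on the other strand, and the strand setting of the counting is not given in the sources used here. OVOL2 changed by -0.79 (adjusted p = 0.0305), the protease inhibitor TFPI2 by -0.65 (adjusted p = 0.0222), the potassium channel KCNQ5 by -0.61 (adjusted p = 0.0232) and EEF1A2 by -0.57 (adjusted p = 0.0406). STAC, an adaptor protein of calcium channels, changed by -0.52 (adjusted p = 0.0127) and ID4, an inhibitor of basic helix-loop-helix factors, by -0.52 (adjusted p = 0.0485). The calls of these 6 genes and of ADRA2C and NKX1-2 held in 1 to 4 of the 6 fits. In ADRA2C, IRX2-DT, OVOL2, EEF1A2 and ID4 replicate 1 of untreated OE was lower than the other untreated libraries.

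GC content moved with these changes. Across 9828 genes with at least 10 CPM in OE, the log2 fold change at 24 h fell with transcript GC content (Spearman's rho -0.43, across genes of the same libraries), and over the 154 genes rho was -0.35. The genes called higher at 24 h had a median transcript GC of 43.0% and those called lower 53.3%, beside 46.8% over the 154. At 12 h rho was 0.19 and 0.07. Between libraries, the deviation of genes from their OE mean correlated with GC at a rho of -0.69 in untreated replicate 1, beside 0.37 and 0.67 in untreated replicates 2 and 3, 0.26 to 0.67 at 12 h and -0.55 to -0.40 at 24 h. With an offset for GC content and length, chosen after seeing the data, 23 genes (14.9%) passed as higher at 24 h and 22 (14.3%) as lower, beside 8.31% and 17.6% of the other expressed protein-coding genes, and 19 (12.3%) and 13 (8.44%) at 12 h beside 4.24% and 6.15%. The genes called lower were thus fewer among the 154 than in this background at 24 h. Of the 21 genes called higher at 24 h, 17 remained called with the offset, while SLC2A12, DIAPH2, ETV1 and CYP4V2 lost the call. All 10 called lower kept it.

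**Figure D5:**
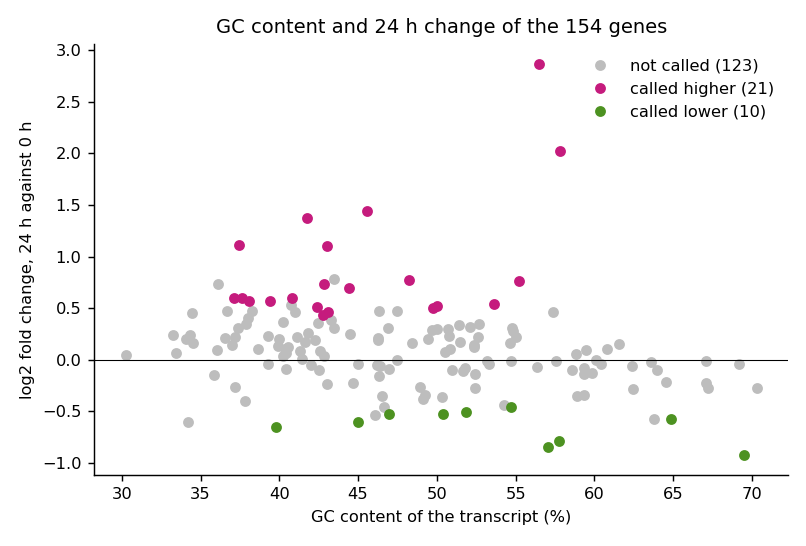
Log2 fold change at 24 h against 0 h (vertical axis) by GC content of the transcript in percent (horizontal axis), 1 point for each of the 154 genes, coloured by the edgeR call at an adjusted p under 0.05. Of the genes called lower, ADRA2C at 69.5% has the highest GC content, while IFNL1 at 56.5% and SMTNL1 at 57.8% are the highest points.

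Between 12 h and 24 h, 4 genes (2.60%) were higher and 1 (0.649%) lower, beside 0.791% and 0.862% of all genes tested and 1.06% and 1.32% of the other expressed protein-coding genes. The higher genes were DCP1B (log2 fold change 0.78, adjusted p = 0.019), SEMA3A (0.72, adjusted p = 0.0437), LPAR1 (0.51, adjusted p = 0.0445) and CASP14 (0.50, adjusted p = 0.0202), and the lower one was CA2. SEMA3A lay at 8.48, 12.5 and 10.6 CPM at 12 h and at 16.2, 17.3 and 18.6 CPM at 24 h, and LPAR1 at 22.4, 22.8 and 23.5 CPM and at 32.5, 33.3 and 32.2 CPM. Leaving out any 1 of the 6 libraries left none of the 4 rises called, and the fall of CA2 was called in 1 of the 6 fits.

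Most of the genes were not called under PARPi. In 117 of the 154 no comparison passed the test, and these include ESRP1, at 272 ± 22.3 CPM at 0 h, 268 ± 15.9 CPM at 12 h and 278 ± 3.54 CPM at 24 h (SD, n = 3). MGMT lay between 45.5 and 66.1 CPM and SYK between 21.1 and 24.7 CPM over the 9 libraries, with ranges that overlapped between times. Before adjustment, 43 of the 154 had a p under 0.05 at 12 h, 66 at 24 h and 42 between the times. The shares before adjustment over all genes tested were not computed, so no excess among the 154 can be read from these counts. Of the ligand list, 9 of 85 tested genes were higher and 4 lower at 12 h and 12 and 7 at 24 h, and of the detoxification list 4 and 0 of 42 at 12 h and 8 and 1 at 24 h, beside 1.7% higher and 0.605% lower of all genes tested at 12 h and 4.71% and 3.55% at 24 h. The 17 cancer-testis genes tested gave no call at either time, but their levels in OE left little to test. None on that list reached 10 CPM in OE. GAGE2A, PAGE1, MAGEA3 and CTAG2, among others, had 0 counts over the 9 OE libraries, so no call was possible for them. Of the marker lists of other cell types, 5 fibroblast, 7 endothelial, 6 haematopoietic and 8 neural and melanocyte genes were tested. At 12 h, 1 fibroblast and 1 haematopoietic marker were called, both higher. At 24 h, 1 fibroblast, 2 endothelial and 1 haematopoietic marker were called, all higher.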

How the data were processed

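The 18 RNA-seq libraries of both lines were grouped by line, time and replicate as in the sample titles. RNA was extracted with TRIzol and libraries were made by NEBNext Ultra II, and the authors deposited read counts for each gene, without normalization. The 18 tables of single libraries were checked to equal the joint table. The submitters' processing notes name HISAT2, featureCounts, DESeq2 and GRCh38/hg38, while annotation and strand setting are not given in the sources used here. Reads that paralogs, overlapping genes or antisense genes share could therefore be counted to either.

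Gene types, positions, exon length and transcript GC came from GENCODE 29, which held 33867 of the identifiers (96.6%), and promoters from RefSeq. The rule used CPM over column sums. Single-library values are CPM with TMM-normalized library sizes. EV counts of 0 were given a floor of 3 counts over the 9 EV libraries together.

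edgeR 4.0.16 in R 4.3.3 (filterByExpr, TMM, quasi-likelihood test, 1 mean per condition over the 18 libraries) tested 18335 genes, a call being an adjusted p (Benjamini and Hochberg) under 0.05 at any fold. Alternatives were DESeq2 1.42.0, other filters, normalizations, fold minimums and libraries, a replicate block and, added after seeing the data, an offset for GC content and length. No replicate pair was as close as counting noise allows.

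The genes and the lists (interferon-stimulated, cancer-testis, cadherin and tight junction, ligand, lineage factor, detoxification and 5 cell type marker lists) were chosen with earlier results of these data known, and roles were assigned after the genes were seen. Named with values are the 12 highest genes per kb, called genes, genes at the thresholds, runs with their neighbours, list members and BRCA1. Other genes are named by role. Some genes that these rules name are not reported here. VIM and the other identity markers were added after their values were seen.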

Additional observations from a re-analysis of the deposited data

Results flagged for a closer look

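In 5 of the 154 genes the change from 0 h differed between 24 h and 12 h by edgeR's quasi-likelihood test of the difference, with Benjamini-Hochberg adjustment over all genes tested. The log2 fold change of 24 h against 12 h was 0.78 in DCP1B, 0.72 in SEMA3A, 0.51 in LPAR1, 0.50 in CASP14 and -0.69 in CA2. These are 2.60% of the 154 genes higher and 0.649% lower, beside 0.791% and 0.862% of all genes tested. None of the 4 rises was called in any of the 6 fits that leave out 1 library, and the fall of CA2 was called in 1.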

How the results depend on the processing

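Of the 51 called results of single genes, 19 kept the call in all 6 fits that leave out 1 library (9 of 15 at 12 h, 10 of 31 at 24 h and 0 of 5 between the times). Over all settings they gave 663 recomputed values, of which 496 kept direction and call, 167 kept the direction and lost the call, and none reversed. With other rules the number of genes was 92 at a mean of at least 20 CPM and 237 with up to 3 EV counts, and leaving out 1 OE library gave 151 to 155. With runs of members within 1000000 bases, 36 genes were in runs in place of 13.

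Leaving out 1 library gave 8 to 12 higher and 1 to 3 lower genes at 12 h, 8 to 35 and 2 to 17 at 24 h, and 0 higher and 0 to 1 lower between the times. DESeq2's Wald test called 16 genes higher and 7 lower at 12 h, 18 lower at 24 h, and 10 higher and 10 lower between the times. With no filter on low counts, 5 were lower at 12 h and 6 between the times. With the 9 OE libraries alone, 17 were lower at 24 h and 2 between the times. The offset for GC content and length gave 19 higher and 13 lower at 12 h, 22 lower at 24 h and 11 lower between the times. At an absolute log2 fold change of at least 1, there were 7 higher and 0 lower genes at 12 h, 6 and 0 at 24 h and 0 and 0 between the times. The causes of these shifts were not tested, beyond the fewer libraries or the fold minimum of the settings themselves.

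A replicate block gave 11 higher and 1 lower at 12 h, 15 and 7 at 24 h and 2 and 1 between the times. The replicate numbers showed no pairing in the deviations: same-numbered OE libraries correlated between -0.227 and 0.136. Deviations of single libraries also moved with GC content, so this measure cannot tell whether the cultures were paired. With a median depth of 16077299.5 counts per library, the floor of 3 counts over the 9 EV libraries together limits EV levels to 0.0204 CPM.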
